A study of Mus musculus with 4 samples.

Results

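The steps that lead from cholesterol import to estradiol were followed through 10 genes in mouse granulosa cells (GCs), the somatic cells around the oocyte. The genes were Star, Cyp11a1, Fdx1, Fdxr, Hsd3b1, Cyp17a1, Hsd17b1, Cyp19a1, Akr1c18 and Srd5a1, chosen by symbol, and all 10 were found among the 55385 genes of the count table. Preantral follicles came from ovaries of Kunming females of 12 to 14 days and grew in vitro for 6 days, all in a medium with follicle-stimulating hormone (FSH), insulin, transferrin, fetuin and albumin. They grew without NT-4 (Control, n = 2 libraries) or in the presence of NT-4, the neurotrophin that binds the receptor TRKB (NT4, n = 2 libraries). By the study's methods, GCs were the cells left after the oocyte had been removed from the complex, and their RNA was sequenced in bulk, with the number of follicles behind a library not given in the sources used here. The study described the samples as coming from independent experiments, and the labels did not say whether a library came from separate animals.

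In the ovary, steroid hormones are made by cooperation between theca cells, which lie outside the follicle's basement membrane, and GCs, which lie inside it. Theca cells turn cholesterol into androgen with StAR, CYP11A1, HSD3B and CYP17A1, and GCs turn androgen into estrogen with CYP19A1, the aromatase, and HSD17B1. FSH is known to raise aromatase in GCs through cAMP, and the orphan nuclear receptors SF-1 (Nr5a1) and LRH-1 (Nr5a2) are known activators of many of these genes. AKR1C18 and SRD5A1 act on the side branches, the first by inactivating progesterone and the second by reducing the double bond of progesterone and testosterone.

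Promoter sequence is shown for 3 of these genes, selected because they span the behaviours described further on. Hsd3b1 was the most abundant member, Cyp19a1 carries the step that defines GC steroidogenesis, and Fdx1 varied least between the libraries. Each line gives the 250 bases before a RefSeq start site on GRCm38.p6, read 5′ to 3′ on the strand of the gene, and no exon of the GENCODE annotation overlaps them.
Hsd3b1 (chr3:98859795-98860044, minus strand): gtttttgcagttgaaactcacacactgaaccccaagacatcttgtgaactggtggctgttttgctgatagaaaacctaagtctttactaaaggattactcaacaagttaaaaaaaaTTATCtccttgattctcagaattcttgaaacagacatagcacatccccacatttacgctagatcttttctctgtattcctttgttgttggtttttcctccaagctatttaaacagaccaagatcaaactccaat
Cyp19a1 (chr9:54193744-54193993, minus strand): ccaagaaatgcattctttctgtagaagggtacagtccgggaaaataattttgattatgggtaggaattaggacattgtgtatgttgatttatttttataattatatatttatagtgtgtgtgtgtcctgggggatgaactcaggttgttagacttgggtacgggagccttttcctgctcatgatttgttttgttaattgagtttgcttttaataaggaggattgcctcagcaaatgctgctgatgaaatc
Fdx1 (chr9:51963603-51963852, minus strand): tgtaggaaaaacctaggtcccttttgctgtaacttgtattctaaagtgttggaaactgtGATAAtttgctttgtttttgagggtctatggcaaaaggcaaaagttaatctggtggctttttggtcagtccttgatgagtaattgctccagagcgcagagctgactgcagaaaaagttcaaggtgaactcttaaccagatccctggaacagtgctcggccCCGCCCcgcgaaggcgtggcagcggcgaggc
Capitals mark matches on either strand to 4 short motifs, and none of the matches overlapped another. They were CAAGGNCA (the site shared by SF-1 and LRH-1), GATAA (the core bound by GATA factors), TGACG (the core of a cAMP-response element) and GGGCGG (the GC box).

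The Hsd3b1 window held 1 match to GATAA on the opposite strand, 134 to 130 bases before the start. The Fdx1 window held 1 match to GATAA and 1 to GGGCGG on the opposite strand, and the Cyp19a1 window held 0 matches to the 4 motifs. Over 32851 RefSeq windows of the same length, 5.53% held CAAGGNCA, 22.6% GATAA, 17.8% TGACG and 32.7% GGGCGG. Windows were found for 7 of the 10 members, and CAAGGNCA was in 0 of them. The absence of these letters says nothing of binding by the factors. Cyp19a1 had 3 windows, of which the one shown lies nearest to its coding exons, and the 4 motifs had 0 matches in the other 2 as well.

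Sequencing gave totals of 49520092 to 78704020 counts per library. Of counts from 1 to 12, 45.4% to 46.2% sat at 4, 8 or 12. If a pair of reads is worth near 4 counts, which the sources used here do not state, the totals stand for 1.24e+07 to 1.97e+07 read pairs. Levels are given as CPM, which are counts scaled to library size with TMM factors, and a gene with 0 counts could on the same assumption lie at up to 3 read pairs, or 0.156 to 0.239 CPM by library, for counting error only. All 10 genes of a granulosa marker list were measured, led per kilobase by Inha at 4965, Inhbb at 498 and Inhba at 290 CPM per kilobase. All 12 genes of a theca and stroma list were also measured, and whether their RNA came from other cells or from the cultured GCs was not tested. Summed, the Control libraries had 786 and 753 CPM of them and the NT4 libraries 1069 and 883 CPM. In bulk RNA, more cells of a type and more RNA per cell cannot be told apart. Oocyte markers summed to 66.1 to 94.9 CPM and macrophage markers to 0.976 to 1.91 CPM per library, with Ptprc at 0 in 3 libraries and 0.163 CPM in Control 2.

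The order of expression within the pathway was examined first, on the scale of CPM per kilobase of merged exons so that genes of different length can be compared. Hsd3b1, which makes progesterone from pregnenolone, stood highest with a mean of 1845 (range 1307 to 2507 over the 4 libraries). Hsd17b1, which reduces estrone to estradiol, followed with a mean of 476 (369 to 607). The ranges of these genes overlapped neither each other nor that of any other member. A middle group held Fdxr at 49.0 (40.8 to 60.2), Cyp11a1 at 46.5 (26.6 to 67.2) and Cyp17a1 at 46.3 (26.1 to 62.6), whose ranges overlapped, so their order was not resolved. Fdx1 stood at 27.5 (24.5 to 30.96), and its range overlapped those of Cyp11a1 and Cyp17a1, although both stood above Fdx1 in every library. Cyp19a1 stood at 12.7 (8.10 to 19.2), below Fdx1 without overlap. Srd5a1 at 8.70 (7.57 to 10.4) and Star at 8.13 (5.84 to 9.501) overlapped each other, and both also overlapped Cyp19a1. Akr1c18 was lowest at 1.06 (0.505 to 1.68). With the longest transcript in place of merged exons, all 10 genes kept their rank. Means rose to 70.5 for Fdxr, 65.0 for Cyp11a1, 53.4 for Cyp17a1 and 30.9 for Fdx1. The range of Fdx1 then no longer overlapped that of Cyp11a1 (37.1 to 93.9). Cyp19a1 moved to 23.3 (14.9 to 35.5). Its range then overlapped that of Fdx1 (27.6 to 34.8) and no longer those of Srd5a1 (8.33 to 11.5) and Star (5.94 to 9.66), so its place relative to these genes depends on the length used.

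**Figure D1:**
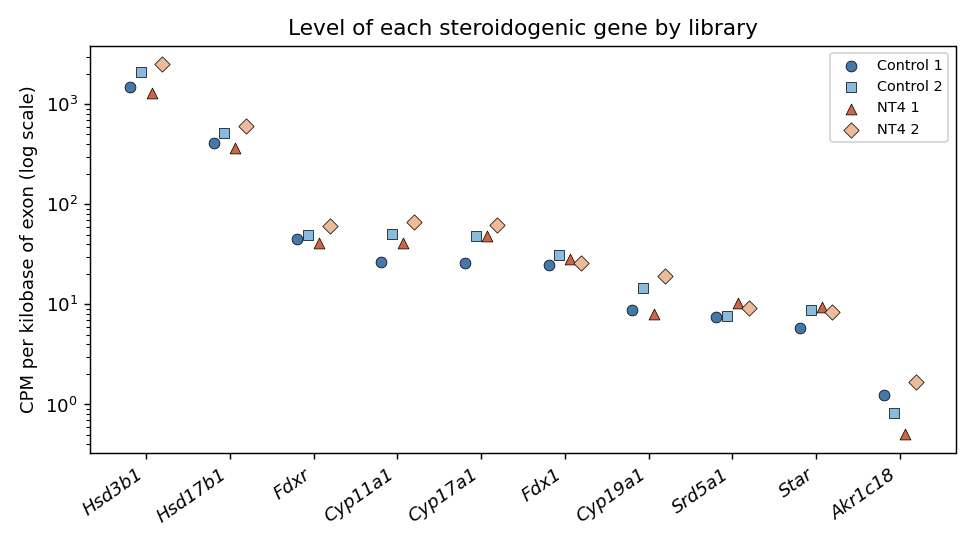
Levels of the 10 genes in CPM per kilobase of merged exons (log axis), ordered by mean, with 1 point per library (blue, Control; orange, NT4). Hsd3b1 and Hsd17b1 stood above all other members, from 1307 to 2507 and from 369 to 607, and Akr1c18 stood lowest, from 0.505 to 1.68.

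To ask how NT-4 in the medium changed the pathway, NT4 was compared with Control over all 19259 genes that passed the filter on low counts, among them all 10 members. By edgeR's quasi-likelihood test, 0 of 10 members passed an adjusted p of 0.05, where 0% of all genes did, and each member had an adjusted p of 0.99994. Calls at an unadjusted p under 0.05 numbered 0 of 10, against 1.99% of all genes (383 of 19259). The criterion of the study, that p together with a fold of 2, was met by 0 of 10 members, against 1.08% of all genes. The DESeq2 Wald test, edgeR's exact test and limma voom also called 0 of 10 members at an adjusted p of 0.05, against 0.338%, 0.306% and 0% of all genes. Fitted values were higher in NT4 for 9 of 10 members, with a median log2 fold change of 0.16, beside 51.0% of all genes and a median of 0.0045. The count of higher values was 5 of 10 without NT4 2 (median −0.09) and 6 of 10 without Control 1 (0.03). It was 9 of 10 without NT4 1 (0.43) and 9 of 10 without Control 2 (0.38). With the replicate number as a block it was 8 of 10 (0.11). Under that block Cyp11a1 (p 0.00695), Cyp17a1 (p 0.0113) and Srd5a1 (p 0.0425) had an unadjusted p under 0.05 in edgeR's test. The share of all genes under it was then 3.01%, and 0 members passed the adjustment.

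**Figure D2:**
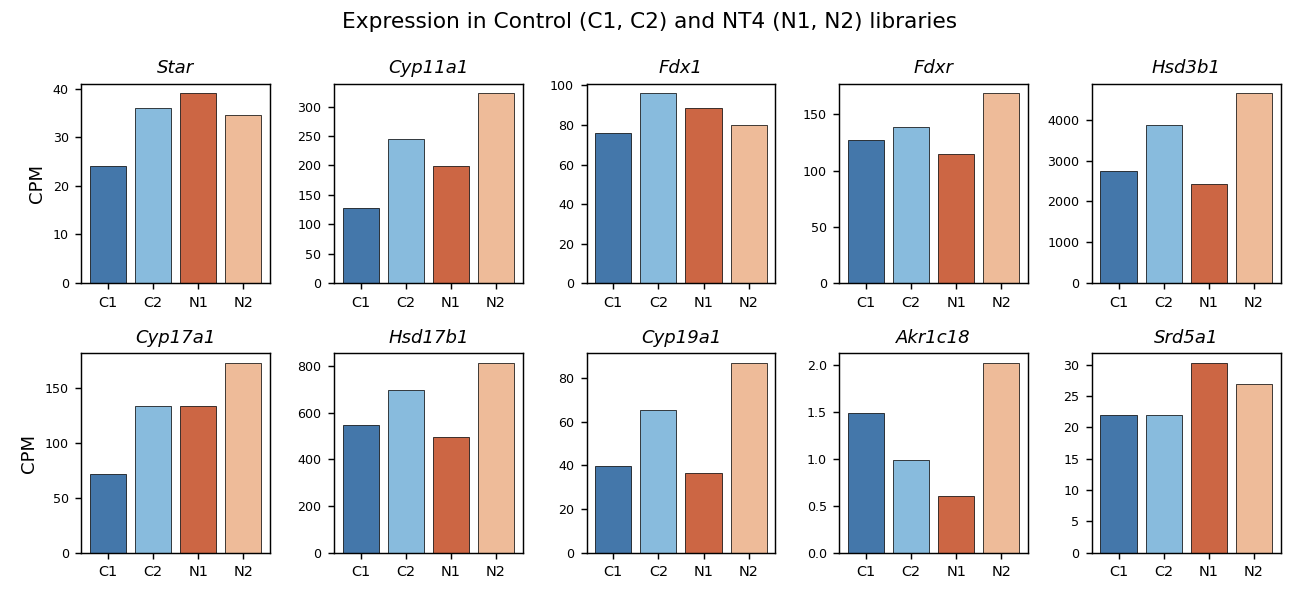
CPM of each gene in the 4 libraries (C, Control; N, NT4; each panel has its own axis, starting at 0). In Srd5a1 and, by a margin of under 1 CPM, Cyp17a1, both NT4 bars stood above both Control bars, while Hsd3b1, Hsd17b1, Cyp19a1, Fdxr and Cyp11a1 were highest in the libraries numbered 2.

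Entry of cholesterol into mitochondria came next. Star (ENSMUSG00000031574, GRCm38 chromosome 8, 25806555 to 25815982, plus strand) encodes the carrier that brings cholesterol to the inner membrane, the step acutely controlled by gonadotropins. Star was at 24.03 and 35.99 CPM in Control 1 and Control 2 and at 39.1 and 34.7 CPM in NT4 1 and NT4 2. Control 1 was low and the other 3 libraries lay close together, so the groups overlapped. NT4 over Control gave a log2 fold change of 0.30 (SE 0.23, 95% interval −0.28 to 0.87). Without Control 1 it was 0.030 and without Control 2 it was 0.62, with unadjusted p of 0.910 and 0.0535 in edgeR's test.

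Cleavage of the cholesterol side chain is the rate-limiting enzymatic step, carried out by CYP11A1 with electrons passed from FDXR, a flavoprotein, through the iron-sulfur protein FDX1. Cyp11a1 (ENSMUSG00000032323, chromosome 9, 58006411 to 58027023, plus strand) was at 128 and 245 CPM in the Control libraries and at 199 and 323 CPM in the NT4 libraries. The level in NT4 1 was below that in Control 2, so the groups overlapped, and the range over the libraries was 2.53-fold. The log2 fold change was 0.49 (SE 0.37, 95% interval −0.45 to 1.43), an interval that reaches a fold of 2.69. It was 0.088 without Control 1, 0.093 without NT4 2, 0.79 without NT4 1 and 1.04 without Control 2, and in the last case met the study's criterion at an unadjusted p of 0.00883. Cyp11a1 shares 145 exon bases on the same strand with Gm17322, a long non-coding RNA gene with 29 to 107 counts per library, and the log2 fold change was also 0.49 with the counts of both summed.

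The electron carriers varied less between libraries than the enzyme they serve, over 1.26-fold for Fdx1 and 1.47-fold for Fdxr. Fdx1 (ENSMUSG00000032051, chromosome 9, 51943306 to 51963556, minus strand), whose promoter is printed above, was at 76.1 and 96.1 CPM in Control and at 88.5 and 80.2 CPM in NT4. Its range of 1.26-fold was the narrowest of the 10 members. Between groups the log2 fold change was −0.03 (SE 0.16, 95% interval −0.42 to 0.36). Fdxr (ENSMUSG00000018861, chromosome 11, 115268024 to 115277050, minus strand) was at 127 and 139 CPM in Control and at 115 and 169 CPM in NT4. The NT4 libraries lay on either side of the Control libraries, with a log2 fold change of 0.09 (SE 0.21).

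Hsd3b1 (ENSMUSG00000027871, chromosome 3, 98852194 to 98859794, minus strand) was at 2738 and 3879 CPM in Control and at 2425 and 4650 CPM in NT4. The NT4 libraries held both the lowest and the highest value, 1.92-fold apart. The log2 fold change was 0.10 (SE 0.33, 95% interval −0.75 to 0.94), turning to −0.45 without NT4 2 and −0.14 without Control 1. The paralogs of this cluster were scarce, with Hsd3b6 at 1.12 to 2.09 CPM and Hsd3b2, Hsd3b3, Hsd3b4 and Hsd3b5 under 1 CPM in all libraries. No stretch of 100 bases of the Hsd3b1 transcript occurs in their transcripts (0% of windows), and 5.9% of its 31-base windows occur in Hsd3b6. Summing the 6 genes left the log2 fold change of Hsd3b1 at 0.10.

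Cyp17a1 (ENSMUSG00000003555, chromosome 19, 46667165 to 46673172, minus strand) makes androgen from progestins and is known as a theca enzyme. Its level was 72.2 and 133.6 CPM in Control and 133.9 and 173 CPM in NT4. The groups did not overlap, but only by the small gap between Control 2 and NT4 1, and the spread within Control exceeded that gap by far. Both NT4 libraries stood above both Control libraries in 2 of the 10 members, Cyp17a1 and Srd5a1, and in 13.4% of all genes tested. The reverse held for 0 of 10 members and 12.7% of all genes. The log2 fold change of Cyp17a1 was 0.58 (SE 0.31, 95% interval −0.21 to 1.37), the largest of the members in this fit. It ranged from 0.20 without Control 1 to 1.10 without Control 2, where the criterion of the study was met at an unadjusted p of 0.00242 in the quasi-likelihood test of edgeR, with 0.378 after adjustment.

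Other theca genes were read beside it. All 12 theca and stroma markers had a positive fitted value, with a median of 0.38 on the log2 scale, though not under every alternative. Hhip was negative with library totals in place of TMM, Hhip and Insl3 without Control 1, Nr2f2 without Control 2, Insl3 without NT4 2, and Hhip, Nr2f2 and Ptch1 without NT4 1. The median stayed at 0.22 to 0.37 with a library left out. Both NT4 libraries stood above both Control libraries in 7 of 12, against the 13.4% of all genes. In edgeR's test 3 of 12 passed an unadjusted p of 0.05, against 1.99% of all genes, and 0 passed the adjustment. Those 3 were Acta2 (0.44, SE 0.12), Dcn (0.39, SE 0.13) and Tcf21 (0.57, SE 0.20), which mark muscle-like and stromal cells rather than steroidogenic ones. Insl3, a peptide hormone of steroidogenic theca cells, was at 5.54 and 14.3 CPM in Control and at 9.58 and 16.5 CPM in NT4, so its groups overlapped. Lhcgr, the receptor for luteinizing hormone, was at 55.6 and 64.7 CPM in Control and at 72.5 and 73.8 CPM in NT4, without overlap (log2 fold change 0.28, SE 0.13). The most abundant per kilobase were Acta2 at 119.8, Col1a1 at 27.9 and Insl3 at 18.4 CPM per kilobase. Col1a1, which encodes a collagen chain, was at 158 and 157 CPM in Control and at 257 and 161 CPM in NT4. The part of theca and stroma cells in the level of Cyp17a1 was not tested.

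The last steps, to estradiol, belong to GCs. Hsd17b1 (ENSMUSG00000019301, chromosome 11, 101078411 to 101080527, plus strand) was at 547 and 695 CPM in Control and at 495 and 812 CPM in NT4, with NT4 libraries at both ends of the range. Its log2 fold change was 0.07 (SE 0.26, 95% interval −0.59 to 0.73). Cyp19a1 (ENSMUSG00000032274, chromosome 9, 54165937 to 54268110, minus strand) was at 39.7 and 65.5 CPM in Control and at 36.6 and 87.0 CPM in NT4. Again the NT4 libraries were the lowest and the highest, 2.37-fold apart. Aromatase had a log2 fold change of 0.23 (SE 0.45), and the 95% interval of −0.91 to 1.37 includes folds from 0.534 to 2.58, so neither a rise of 2-fold nor the lack of a difference was resolved for aromatase. Leaving out NT4 2 gave −0.53 and leaving out NT4 1 gave 0.72.

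The side branches held the least abundant member and the one with the smallest p in the quasi-likelihood fit of all 4 libraries without a block. Akr1c18 (ENSMUSG00000021214, chromosome 13, 4132615 to 4150654, minus strand), which rises in the corpus luteum at its regression, was at 1.49 and 0.990 CPM in Control and at 0.610 and 2.02 CPM in NT4. These values rest on 38 to 156 counts per library, and the NT4 libraries enclosed the Control libraries. Its log2 fold change was 0.09 (SE 0.64, 95% interval −1.53 to 1.72). Its paralog Akr1c14, which encodes a hydroxysteroid dehydrogenase of the same cluster, was at 708 to 774 CPM. Of the Akr1c18 transcript, 0% of the 100-base windows and 1.9% of the 31-base windows occur in Akr1c14, and whether reads passed between them in counting was not tested.

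Srd5a1 (ENSMUSG00000021594, chromosome 13, 69573449 to 69611442, minus strand) encodes steroid 5-alpha-reductase. It was at 22.02 and 22.04 CPM in Control and at 30.3 and 26.9 CPM in NT4. Both NT4 libraries were above both Control libraries, and the difference of group means exceeded the SD of 0.013 and 2.42 CPM (n = 2 each). The log2 fold change was 0.38 (SE 0.15, 95% interval −0.0056 to 0.76), with an unadjusted p of 0.0524 and an adjusted p of 0.99994 in edgeR's quasi-likelihood test. Before adjustment DESeq2 gave a p of 0.0454, the exact test of edgeR gave 0.113, and the quasi-likelihood test without NT4 2 gave 0.0436. Its log2 fold change stayed between 0.28 and 0.46 with any library left out. Gm17108, annotated as a sense-overlapping transcript, shares 16.4% of the exon bases of Srd5a1 on the same strand, had 45 to 120 counts per library, and brought the log2 fold change to 0.34 when summed with it.

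**Figure D3:**
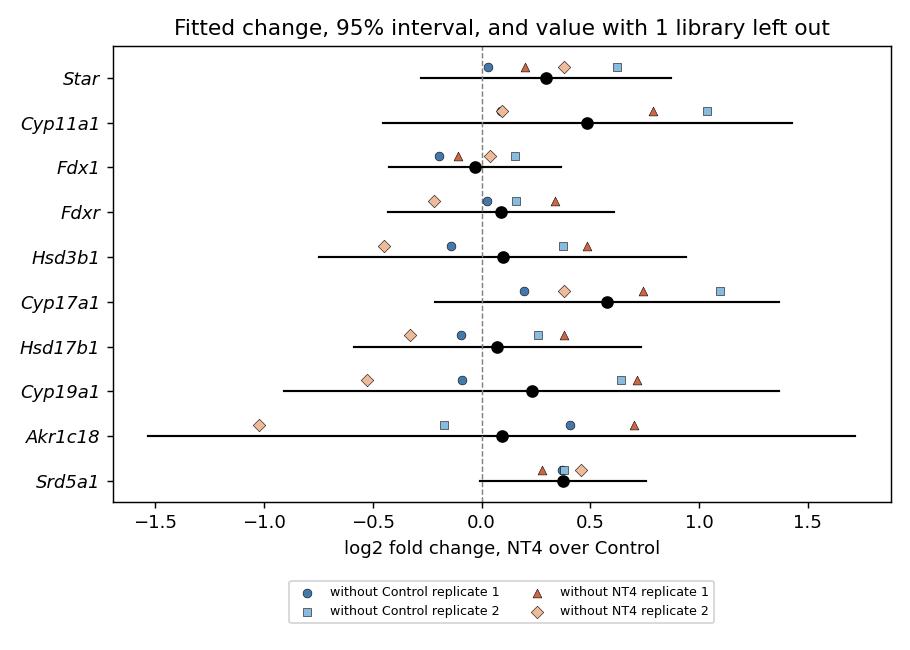
Log2 fold change of NT4 over Control for each gene (black point) with its 95% interval from edgeR's quasi-likelihood fit (line), and the value with 1 library left out (coloured points). Each interval includes 0, and for Hsd3b1, Hsd17b1, Cyp19a1, Akr1c18, Fdx1 and Fdxr the sign depended on which library was left out.

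The members were then compared across the single libraries, since the spread within groups was wide. Control 2 and NT4 2 both stood above Control 1 and NT4 1 for 5 of 10 members, Cyp11a1, Fdxr, Hsd3b1, Hsd17b1 and Cyp19a1, where 24.8% of all genes tested did so, and the reverse held for 0 of 10 members and 24.3% of all genes. For Cyp19a1, NT4 2 was 2.37-fold above NT4 1 and Control 2 was 1.65-fold above Control 1. For Hsd3b1 these ratios were 1.92 and 1.42, and for Hsd17b1 1.64 and 1.27. Cyp17a1 followed the same numbers within each group, at 1.29 and 1.85. Star, Fdx1 and Srd5a1 did not, with NT4 2 below NT4 1 at ratios of 0.887, 0.906 and 0.887. Nor did Akr1c18, for which NT4 2 was 3.32-fold above NT4 1 and the ratio of Control 2 to Control 1 was 0.662. By the methods the groups were run side by side, but the labels do not say that a number marks an experiment, so these are ratios between single libraries. With the number as a block in edgeR's fit, 0 of 10 members passed an adjusted p of 0.05, and 3 of 10 had an unadjusted p under 0.05 (Cyp11a1, Cyp17a1 and Srd5a1), against 3.01% of all genes.

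Granulosa markers, of which Amh, Amhr2, Kitl and Fshr were named after their values were seen, were read library by library. Of the 10 granulosa markers, 7 stood higher in both libraries numbered 2 and 3, Amh, Amhr2 and Kitl, in both numbered 1, against 24.8% and 24.3% of all genes tested. Inhba and Inhbb, the activin subunit genes, were at 1586 and 1510 CPM in Control 1, 2157 and 2689 in Control 2, 1204 and 1047 in NT4 1 and 2461 and 3224 in NT4 2, in the same order as Hsd3b1 and Cyp19a1. Amh, which is typical of small growing follicles, had the opposite order, at 299 and 151 CPM in Control and 391 and 91.5 CPM in NT4. The FSH receptor gene Fshr was at 113 and 147 CPM in Control and 108 and 162 CPM in NT4. The part of follicle stage in the levels of the members was not tested.

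**Figure D4:**
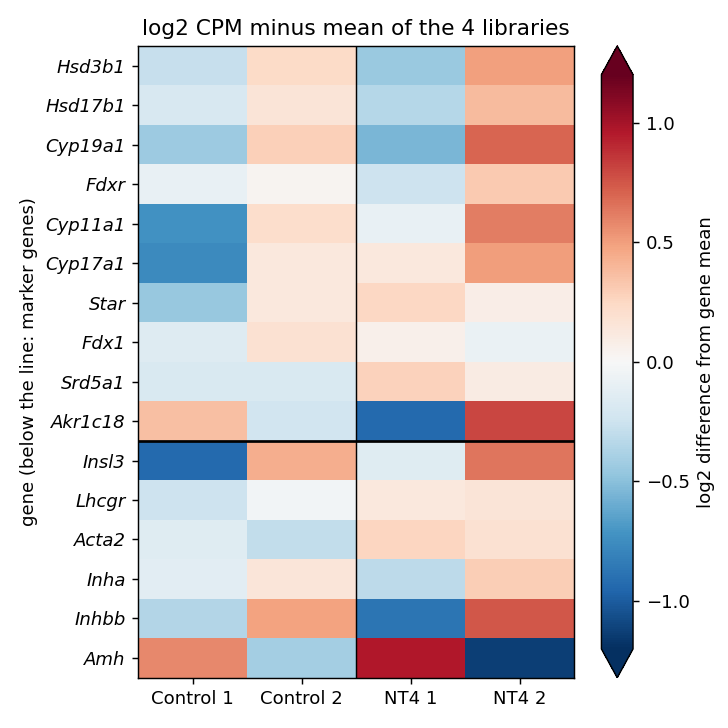
Log2 CPM of each gene minus its mean over the 4 libraries, for the members (above the line) and for marker genes (below it). Hsd3b1, Hsd17b1, Cyp19a1 and Fdxr shared an order of libraries with Inha and Inhbb and ran against Amh. Cyp11a1 and Cyp17a1 were lowest in Control 1, at −0.73 and −0.76, as were Star (−0.453), Fdx1 (−0.158), Srd5a1 (−0.187), Insl3 (−0.933) and Lhcgr (−0.252). For Srd5a1, Control 2 was nearly as low, at −0.186. Acta2 was lowest in Control 2, at −0.296.

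Likeness to genes of the other lists, the 10 members left out, was measured for Cyp11a1 and Star as the root mean square distance between centred log2 CPM profiles over the 4 libraries, among 71 listed genes whose mean reached 1 CPM. The genes closest to Cyp11a1 were Insl3 (0.15), Hsd3b6 (0.19) and Sfrp4 (0.24), a secreted WNT antagonist. The genes closest to Star were Lhcgr (0.15), Prlr (0.16), the prolactin receptor, and Por (0.18), the reductase that supplies electrons to microsomal P450 enzymes. Among the members themselves, Cyp17a1 lay closer to Cyp11a1 (0.13) than any of these, and the member closest to Star was Fdx1 (0.19). These distances describe 4 points each and were not tested.

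For other enzymes and carriers of steroid metabolism no difference passed a test. Of 33 listed genes, 32 were in the table and 25 were tested, 14 with a higher and 11 with a lower fitted value in NT4, with a median log2 fold change of 0.04. At an adjusted p of 0.05 and by the study's criterion 0 were called, and 0 had an unadjusted p under 0.05 in edgeR's test, against 0%, 1.08% and 1.99% of all genes. Both NT4 libraries stood above both Control libraries in 5 of 32 genes, of which Hsd3b2 and Hsd3b4 were too low to be tested, and below them in 2, against 13.4% and 12.7% of all genes tested. Fitted values of genes under about 1 CPM were wide, such as 0.88 (SE 0.58) for Hsd11b1 and −1.13 (SE 0.82) for Stard6. The most abundant per kilobase were Akr1c14 at 232, Cyb5a at 208, a cofactor of CYP17A1, and Hsd17b10 at 107 CPM per kilobase, though by longest transcript Cyb5a led at 547 and Akr1c14 followed at 236. Their log2 fold changes, in the order first given, were 0.04 (SE 0.11), −0.10 (SE 0.18) and 0.17 (SE 0.22). The adrenal enzymes were at or near the floor. Cyp11b2 had 0 counts in 4 of 4 libraries, Cyp11b1 0 to 0.545 CPM and Cyp21a1 0 to 0.493 CPM.

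Regulators of the pathway were described last. Of 18 genes, 11 had a higher and 7 a lower fitted value in NT4, with a median log2 fold change of 0.03, and 0 passed the adjusted threshold or the study's criterion. Without NT4 2 the split was 6 and 12 with a median of −0.08, and without NT4 1 it was 13 and 5 with a median of 0.16. The most abundant per kilobase were Prkar2b at 179, a regulatory subunit of protein kinase A, Foxo1 at 133 and Nr5a2 at 105 CPM per kilobase (by longest transcript Nr4a1, at 133, drew level with Foxo1), with log2 fold changes of −0.05 (SE 0.21), −0.03 (SE 0.15) and −0.04 (SE 0.13). An unadjusted p under 0.05 was found for 2 of 18 genes, against 1.99% of all genes, and these were named after their values were seen. Creb1, which encodes the cAMP-response factor CREB, was at 25.4 and 25.7 CPM in Control and at 53.4 and 45.2 CPM in NT4 (log2 fold change 0.95, SE 0.15, adjusted p 0.817 with edgeR). Cebpb, which encodes a factor of the ovulatory response, was at 54.2 and 56.1 CPM in Control and at 86.7 and 82.6 CPM in NT4 (0.62, SE 0.12). Nr5a1 was at 194 and 246 CPM in Control and at 196 and 303 CPM in NT4, higher in the libraries numbered 2.

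Luteal markers, read beside Akr1c18, numbered 7, with a median of 0.06 on the log2 scale, 6 with a higher fitted value, and 0 were called. Higher values numbered 2 of 7 without Control 1 (median −0.09), 3 of 7 without NT4 2 (−0.11) and 7 of 7 without Control 2 (0.40). They were led per kilobase by Scarb1, the receptor for high-density lipoprotein, at 34.1, Parm1 at 13.5 and Lhcgr at 8.72 CPM per kilobase. Ptgfr, the prostaglandin receptor of the corpus luteum, was at 0 to 1.23 CPM and Pgr, the progesterone receptor, at 0.797 to 2.50 CPM. Granulosa markers had a median of 0.03 over 10 genes, with 7 higher and 3 lower fitted values and 0 were called. The split was 5 and 5 with library totals, 4 and 6 with the replicate block, and 3 and 7 without Control 1 or without NT4 2, with medians of −0.13 and −0.25 in the last cases. Oocyte markers had a median of −0.03 over 8 genes, from −0.24 without Control 2 to 0.20 without Control 1, and were led per kilobase by Gdf9 at 13.5, Zp3 at 9.43 and Oosp1 at 5.90 CPM per kilobase. Of 5 macrophage markers 3 were tested, with a median of −0.05 (from −0.49 without NT4 1 to 1.02 without Control 1), led by Cd68 at 0.859 and followed by C1qa at 0.139 and Csf1r at 0.024 CPM per kilobase. Endothelial markers had a median of 0.19 over 5 genes (from −0.03 without NT4 1 to 0.25 without Control 1), led by Cdh5 at 4.83, Pecam1 at 0.222 and Emcn at 0.152 CPM per kilobase. In that list 1 of 5 genes, Tek, met the study's criterion (log2 fold change 1.97, SE 0.71), against 1.08% of all genes. Tek was at 0.159 and 0.190 CPM in Control, near the floor of those libraries, and at 0.946 and 0.441 CPM in NT4.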

How the data were processed

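Bulk RNA libraries of GCs were made with a dUTP second strand. By their methods, the authors trimmed reads with Cutadapt, aligned them by HISAT2 to mouse (Ensembl v99, thus GRCm38) and estimated expression with StringTie and ballgown. The submitters' notes also name mm10, FastQC and edgeR. Expected counts per gene, in whole numbers and without normalization, are what the authors deposited. The step from StringTie to whole counts and any use of strand are not given in the sources used here. The single-library files held the same counts as the series table.

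Of 55385 genes, 55144 matched a symbol. Coordinates, exon overlaps and lengths came from GENCODE M21 on GRCm38, matched by identifier. Low counts piled up at multiples of 4 (45.4% to 46.2% of counts from 1 to 12 sat at 4, 8 or 12). Counts were tested in R 4.3.3 with edgeR 4.0.16 (quasi-likelihood, TMM, default filter, group only, two-sided, Benjamini-Hochberg over all genes tested). The test was also run on simulated data. Those gave every gene the same spread, so they do not show how the test performs on these libraries. SE is the log2 fold change over the root of F. With 2 libraries against 2, an exact permutation test could not go below a two-sided p of 0.333, so p-values rest on spread pooled across genes. Alternatives used DESeq2 1.42.0, limma 3.58.1, other scalings and filters, counts divided by 4, the replicate number as a block, each library left out, and summed overlapping or paralogous genes.

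Genes named were the 10 members, the 3 most abundant per kilobase of each other list, those called, the paralogs and overlapping genes, and the closest profiles. Named after their values were seen were Creb1, Cebpb, Nr5a1, Fshr, Amh, Amhr2, Kitl, Dcn, Tcf21, Hhip, Nr2f2, Ptch1, Ptgfr, Pgr, Ptprc, Stard6, Hsd11b1, Nr4a1, Cyp11b1, Cyp11b2 and Cyp21a1. Members and lists were chosen with earlier results of these data known. The listed gene Sts was not analysed here. Promoters of Star, Cyp17a1 and Hsd17b1 are not shown.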

Additional observations from a re-analysis of the deposited data

How the results depend on the processing

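Of values for the 10 genes, 101 of 103 kept their direction over the alternatives on all 4 libraries, and 0 were called. The 2 exceptions were Akr1c18, at −0.014 in limma voom and −0.095 with the replicate block. With a library left out, 11 of 40 values changed sign, and ranges were −0.19 to 0.15 for Fdx1, −0.22 to 0.34 for Fdxr, −0.45 to 0.48 for Hsd3b1, −0.33 to 0.38 for Hsd17b1, −0.53 to 0.72 for Cyp19a1 and −1.02 to 0.70 for Akr1c18. The smallest adjusted p of any member in any fit was 0.378. In these fits the spread of a lone library is taken from the other group.

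Counts over all genes moved more. At an adjusted p of 0.05 the count of 0 became 10 with no filter, 59 in edgeR's exact test, 65 in the DESeq2 Wald test, and 0 to 37 with a library left out (12 without Control 1, 37 without Control 2). The study's criterion, met by 208 genes, was met by 345 with no filter, 87 with the CPM filter, 119 with counts divided by 4, and 341 to 512 with a library left out. Among members it was met by 0 to 2 genes with a library left out, Cyp11a1 and Cyp17a1 without Control 2. The median of other steroid enzymes, 0.04, was 0.13 with no filter and −0.029 to 0.081 with a library left out. With no filter, genes of that list too low for the main fit, such as Hsd3b2 and Cyp21a1, entered the median as well. The cause was not tested.

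By the methods the groups were run side by side, but nothing in the labels says that replicate numbers pair the libraries, and with 2 numbers the pairing stays unknown. Libraries of one number had deviations that correlated at 0.14 across all tested genes and 0.31 at a mean log2 CPM above 3. Under the replicate block the adjusted count was 0 and 180 genes met the criterion. Unadjusted p under 0.05 then numbered 580 genes (3.01%), among them Cyp11a1 (0.52, p 0.00695), Cyp17a1 (0.63, p 0.0113) and Srd5a1 (0.37, p 0.0425) in edgeR's test. Akr1c18 rested on the fewest counts of the members, 38 to 156 per library. With counts divided by 4 its SE was 0.62, beside 0.64 with the counts as given. The parts of depth and of spread between libraries in that SE were not tested. Sums of Srd5a1 and of Hsd3b genes and the check on library totals, where the same 2 members had groups that did not overlap, and the other fits of the marker lists were added after seeing the data.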

Other observations

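Ratios of counts between members, taken within a library, were also examined after the values were seen. Scaling between libraries cancels in them. Of 8 ratios between members, both NT4 libraries lay above both Control libraries in 2, both lay below in 0, and in 6 the groups overlapped. For single genes the shares were 13.4% above and 12.7% below over all genes tested. No such share was measured for ratios, so the tally shows nothing particular to the members. Counts of Cyp11a1 per 100 counts of Hsd3b1 were 4.66 and 6.30 in Control 1 and Control 2 and 8.19 and 6.95 in NT4 1 and NT4 2, without overlap of the groups. Counts of Cyp17a1 per 100 counts of Hsd3b1 were 2.64 and 3.44 in Control and 5.52 and 3.73 in NT4, again without overlap. These 2 ratios share their denominator, and their numerators varied together, so they are not separate observations. Between Cyp17a1 and Cyp11a1 the ratio hardly moved, at 56.6, 54.6, 67.4 and 53.6 per 100 counts in the same order, a range of 1.26-fold, although each gene alone ranged over more than 2.40-fold. Hsd17b1 kept a similar step with Hsd3b1, at 20.0, 17.9, 20.4 and 17.5 per 100 counts, a range of 1.17-fold. Counts of Cyp19a1 per 100 counts of Cyp17a1 were 55.1 and 49.0 in Control and 27.3 and 50.2 in NT4, with NT4 1 alone low. Groups also overlapped for counts of Star per 100 counts of Cyp11a1, at 18.8 and 14.7 in Control and 19.7 and 10.7 in NT4, and for Fdx1 per 100 counts of Fdxr, at 59.7 and 69.3 in Control and 77.3 and 47.5 in NT4. These ratios were not tested.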
